A study of Homo sapiens with 2 samples.

Results

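The genes described here are the zinc finger genes of chromosome 19, taken by name (ZNF, a number and at most 1 further capital letter). The count table lists 249 of them with every annotated exon on chromosome 19. Members were chosen by their counts: 234 had at least 10 in SK-LMS-1 or in SK-UT-1, and 15 had fewer in both. They are 234 of the 13969 genes that reach this minimum in the table of 26485. RefSeq classes 226 as protein-coding and 8 as transcribed pseudogenes. On the hg38 genome 128 lie on the plus strand and 106 on the minus strand.

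RNA was sequenced from SK-LMS-1 and SK-UT-1, established human cell lines of leiomyosarcoma, a malignant tumour of smooth muscle. Each line was given the solvent DMSO alone and each is 1 library of total RNA, with 6906280 counts for the first and 7635850 for the second. Wherever counts or levels are given in pairs, SK-LMS-1 comes first. The series is about pairing an inhibitor of SUV39H2, a methyltransferase of lysine 9 on histone H3, with a PARP inhibitor in uterine leiomyosarcoma. With 1 library per line there is no replicate check and no test, so every difference below compares these libraries. Of 12 smooth muscle markers, 9 reached 10 counts in either line and their counts summed to 9615 and 4254. CALD1 (4905 and 2761 counts), MYLK (2710 and 80) and SMTN (1418 and 879) carried that sum, while ACTA2 (69 and 435) and DES (1 and 26) were higher in SK-UT-1. MYOCD, the master regulator of smooth muscle genes, was at 0 in both lines, and MYH11, smooth muscle myosin, had 5 and 2 counts. Of 11 markers of blood, endothelium and epithelium, CD68 had 602 and 117 counts and the others had between 0 and 9.

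Most zinc finger genes of chromosome 19 belong to the KRAB family, which grew by repeated tandem duplication, so related copies sit side by side in clusters. A KRAB zinc finger protein reads a DNA sequence with its row of C2H2 fingers. Its KRAB box then recruits TRIM28 (KAP1), which brings in SETDB1 and heterochromatin proteins of the HP1 family, and the site is marked by methylation of lysine 9 on histone H3. Many of these proteins hold retrotransposons silent. The genes themselves carry the same histone mark over their finger-coding exons, and promoter methylation of single members has been described in several carcinomas.

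The members were mostly low to moderate in level and somewhat lower in SK-LMS-1. They took 31031 counts in SK-LMS-1, 0.449% of that library (exact 95% Clopper-Pearson interval 0.444 to 0.454). In SK-UT-1 they took 46816 counts, or 0.613% (0.608 to 0.619). Levels are given in CPM, counts relative to the library size after edgeR's TMM scaling. The median member stood at 13.7 and 17.8 CPM, and the highest reached 204 CPM. The median log2 ratio of CPM, SK-LMS-1 over SK-UT-1, was -0.36, against -0.01 over all 13969 genes. In 154 of the 234 members (65.8%) the ratio was below 0, against 50.3% of all genes.

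This lean was shared with zinc finger genes elsewhere in the genome. The 248 genes of the same name pattern on other chromosomes had a median of -0.39, and the 727 other genes of chromosome 19 had one of -0.13. The minimum count lets in genes that passed through 1 line alone. Among the 218 members with 10 counts in both lines the median was -0.43, where all genes so chosen gave 0.00, and over all 249 listed genes it was -0.33. The ratio's exact 95% interval, which covers counting error only, lay wholly below 1 for 113 members, wholly above 1 for 40 and held 1 for 81. Over all 13969 genes it lay below 1 for 5165, above 1 for 5305 and held 1 for 3499.

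**Figure D1:**
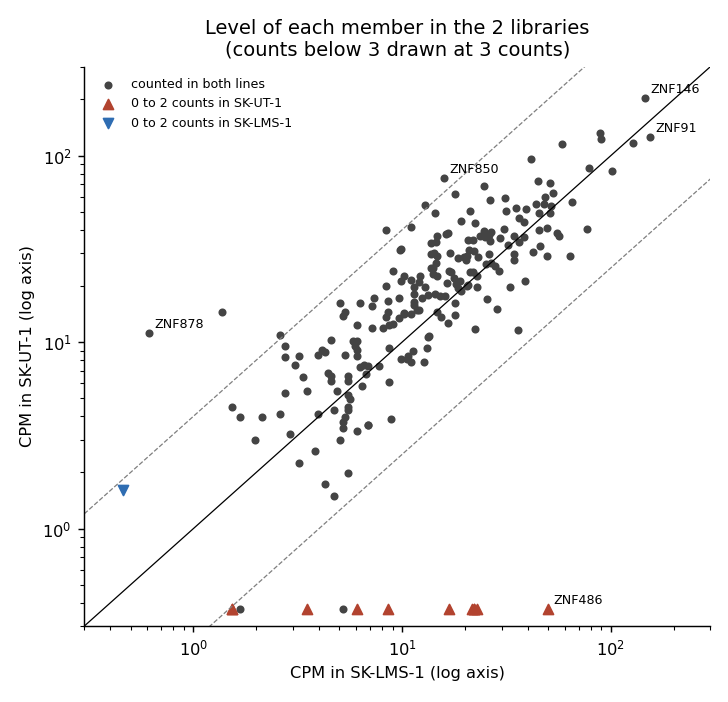
Level of each of the 234 members in SK-LMS-1 (x axis) and SK-UT-1 (y axis), in TMM-scaled CPM on log axes, with counts under 3 drawn at 3 counts. The solid line marks equal levels and the dashed lines 4-fold differences, and the 11 triangles at the lower edge are members with 0 to 2 counts in SK-UT-1.

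The largest differences towards SK-LMS-1 were mostly genes absent from the SK-UT-1 library, and those towards SK-UT-1 were mostly genes counted in both. At 4-fold, 13 members (5.56%) were higher in SK-LMS-1, where 11.7% of all genes were, and 6 (2.56%) were higher in SK-UT-1, where 7.49% were. At 2-fold, 19 members (8.12%) were higher in SK-LMS-1 against 21.1% of all genes. In SK-UT-1 45 members (19.2%) were at least 2-fold higher against 18.3%, and 170 members were within 2-fold. With 10 counts required in both lines, a setting chosen after seeing the data, 218 members and 11458 genes remained. Of those members 0 were 4-fold higher in SK-LMS-1, against 590 of all genes so chosen. In SK-UT-1 4 were 4-fold higher, against 281. The 13 members had fewer than 10 counts in SK-UT-1, so this setting removes them by its rule.

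A member was called silent in a line with 0 to 2 counts there and 10 or more in the other. By this rule 11 members (4.70%) were silent in SK-UT-1, against 5.23% of all genes, and 1 member (0.427%) was silent in SK-LMS-1, against 5.0%. The first share is near that of all genes and the second is below it, with no test of either. On other chromosomes 10 of 248 zinc finger genes (4.03%) were silent in SK-UT-1 and 4 (1.61%) in SK-LMS-1. Silence here means too few fragments to see and does not show absence. For ratios, counts under 3 were raised to a floor of 3, which is 0.373 CPM in SK-UT-1. That floor is no upper limit on the level of a silent gene.

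**Figure D2:**
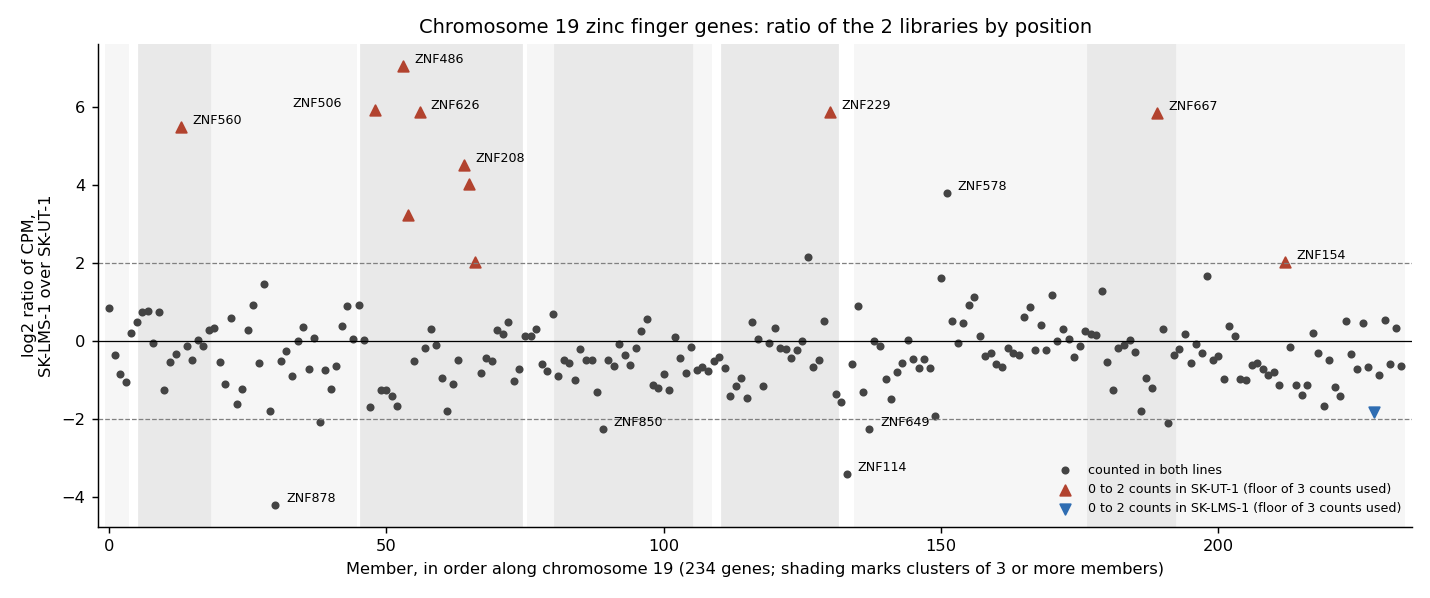
Log2 ratio of CPM, SK-LMS-1 over SK-UT-1, for the 234 members in their order along chromosome 19, with shading for the clusters of 3 or more members and dashed lines at 4-fold. Triangles mark members with 0 to 2 counts in 1 line, of which 7 of the 11 silent in SK-UT-1 sit inside the ZNF101 to ZNF254 cluster.

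ZNF486 showed the widest gap, with 327 counts against 1. That is 49.9 against 0.124 CPM, a ratio of 402 on the counts themselves (71.6 to 15913) and of 134 with the floor of 3 counts that is used for genes at 0. ZNF506 had 150 and 0 counts. It was at least 61.4-fold higher for SK-LMS-1 with SK-UT-1 set to a floor of 3 counts (exact 95% lower limit 49.3). Both are KRAB-type genes of the ZNF101 to ZNF254 cluster. ZNF626 had 145 and 0 counts, and ZNF229 had the same pair of counts, each at least 59.4-fold higher for SK-LMS-1 (exact lower limit 47.7). ZNF667 had 141 and 0 counts, at least 57.7-fold higher (exact lower limit 46.3). ZNF560 had 110 and 0, at least 45.0-fold higher (exact lower limit 36.0). ZNF229, ZNF667 and ZNF560 each lie in a different cluster, where no other member was silent.

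Below these 6 the silent genes were weaker in SK-LMS-1 itself. ZNF208, a gene with a long array of fingers, had 56 counts and 1 count, a ratio of 68.8 on the counts themselves (11.9 to 2765) and of 22.9 with the floor. ZNF257 had 40 and 0 counts, at least 16.4-fold higher for SK-LMS-1 (exact lower limit 12.7). ZNF826P, a transcribed pseudogene, had 23 and 0 counts, at least 9.42-fold higher (exact lower limit 7.06). ZNF729 and ZNF154 had 10 and 0 counts each, just at the minimum. The floor gave 4.09-fold for each, and the exact lower limit was 2.75, below 4-fold. Per kilobase of exon, ZNF486 led in SK-LMS-1 with 12.8 CPM per kb, followed by ZNF506 with 6.89 and ZNF560 with 5.99, while ZNF154 had 0.221.

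The gene silent in SK-LMS-1 was ZNF497, with 2 and 13 counts, a 5.29-fold difference on the counts themselves (1.20 to 48.3). With the floor it was 3.53-fold, so it is not among the members past 4-fold. Its exons overlap A1BG-AS1 on the opposite strand, which went the other way with 35 and 2 counts. Counting used strand setting 1, so fragments of opposite strands were counted apart. Just inside the minimum lay ZNF729 (10 and 0 counts), ZNF154 (10 and 0), ZNF233 (11 and 3) and ZNF497. Just outside it were ZNF728 (9 and 2), ZNF99 (8 and 2), ZNF404 (8 and 0) and ZNF835 (8 and 0). ZNF728 and ZNF99 belong to the ZNF101 to ZNF254 cluster, ZNF404 to that of ZNF229 and ZNF835 to that of ZNF667.

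The silent genes stood partly beside genes that SK-UT-1 did express and partly beside each other. Neighbours were sought only among listed genes with every exon on chromosome 19 and on 1 strand. Genes listed also on an alternate sequence were left out, so a nearer gene can be missing. Taking the nearest such gene of any level on each side of the 11 genes, 13 of 22 positions held 1 with 10 or more counts in SK-UT-1. At 7 positions the neighbour had fewer than 10 there and 10 or more in SK-LMS-1, and at 2 it was under 10 in both. Silent neighbours enter those 7 from both sides: ZNF486 with ZNF826P, ZNF208 with ZNF257, and ZNF257 with ZNF729. No share over other genes was set beside these counts. With neighbours limited to genes that reach 10 counts in a line, a limit that favours expressed ones, 15 of 22 had 10 or more in SK-UT-1. ZNF560 is 30.8 kb from ZNF266 (286 and 441 counts) and 29.4 kb from ZNF426 (296 and 397). ZNF506 is 16.3 kb from the non-coding LINC00663 (8 and 4 counts) and 44.2 kb from ZNF253 (106 and 307), and ZNF14 (33 and 131) lies beyond LINC00663. ZNF229 is 24.6 kb from ZNF285 (21 and 18 counts) and 25.9 kb from ZNF180 (96 and 300). At ZNF560 and ZNF229 the next gene so chosen on either side was thus counted in SK-UT-1, and at ZNF506 on 1 side.

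ZNF154, whose promoter is known to be methylated in many carcinomas, lies 6.47 kb from ZNF551 (90 and 239 counts) and 10.5 kb from ZNF671 (19 and 26). ZNF667 is 14.3 kb from ZNF583 (109 and 309 counts). On its other side ZNF667-AS1, a divergent non-coding transcript on the opposite strand, starts 473 bases away. ZNF667-AS1 had 53 and 0 counts, at least 21.7-fold higher for SK-LMS-1 (exact lower limit 17.0). ZNF471, the next listed zinc finger gene beyond ZNF667-AS1, had 87 and 86 counts. The pair at 0 in SK-UT-1 thus stood between a gene higher in that line and one whose interval held 1.

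The silent ZNF486 and ZNF626 have promoter sequences much like those of counted genes near them. RefSeq windows on GRCh38.p14, from 250 bases before to 50 after the annotated start, were found for 200 of the 234 members and for 8 of the 11 silent in SK-UT-1. They are shown for the silent ZNF486 and ZNF626, and for ZNF737 and ZNF90, which stand between or next to them and were counted in both lines. ZNF667 is added because its window has the most CpG among the 8. Each is written 5′ to 3′ on the gene's own strand, and capitals mark every CpG, which reads the same on both strands. ZNF486 is chr19:20166964-20167263 (plus), ZNF626 chr19:20661522-20661821 (minus), ZNF737 chr19:20565732-20566031 (minus), ZNF90 chr19:20077750-20078049 (plus) and ZNF667 chr19:56477296-56477595 (minus).
ZNF486: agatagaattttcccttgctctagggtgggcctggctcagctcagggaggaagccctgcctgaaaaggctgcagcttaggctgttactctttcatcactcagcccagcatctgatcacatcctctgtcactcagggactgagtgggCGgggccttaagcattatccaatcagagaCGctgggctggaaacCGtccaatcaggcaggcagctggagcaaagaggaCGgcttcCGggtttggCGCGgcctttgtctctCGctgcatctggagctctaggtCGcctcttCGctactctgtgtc
ZNF626: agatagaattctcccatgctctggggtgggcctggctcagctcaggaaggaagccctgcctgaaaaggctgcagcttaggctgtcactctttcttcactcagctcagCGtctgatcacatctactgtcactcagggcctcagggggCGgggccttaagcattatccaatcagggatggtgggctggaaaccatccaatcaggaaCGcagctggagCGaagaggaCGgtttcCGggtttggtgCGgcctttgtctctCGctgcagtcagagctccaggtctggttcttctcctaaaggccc
ZNF737: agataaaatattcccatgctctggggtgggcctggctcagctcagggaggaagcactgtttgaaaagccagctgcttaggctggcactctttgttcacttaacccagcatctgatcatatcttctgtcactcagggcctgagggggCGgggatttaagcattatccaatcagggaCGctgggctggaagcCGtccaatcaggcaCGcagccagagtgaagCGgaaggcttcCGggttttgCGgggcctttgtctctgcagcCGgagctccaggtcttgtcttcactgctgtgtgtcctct
ZNF90: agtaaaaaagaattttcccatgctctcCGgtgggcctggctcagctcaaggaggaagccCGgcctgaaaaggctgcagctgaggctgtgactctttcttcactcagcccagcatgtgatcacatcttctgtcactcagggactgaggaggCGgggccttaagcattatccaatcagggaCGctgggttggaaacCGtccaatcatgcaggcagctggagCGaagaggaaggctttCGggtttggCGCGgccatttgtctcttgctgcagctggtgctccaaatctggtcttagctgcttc
ZNF667: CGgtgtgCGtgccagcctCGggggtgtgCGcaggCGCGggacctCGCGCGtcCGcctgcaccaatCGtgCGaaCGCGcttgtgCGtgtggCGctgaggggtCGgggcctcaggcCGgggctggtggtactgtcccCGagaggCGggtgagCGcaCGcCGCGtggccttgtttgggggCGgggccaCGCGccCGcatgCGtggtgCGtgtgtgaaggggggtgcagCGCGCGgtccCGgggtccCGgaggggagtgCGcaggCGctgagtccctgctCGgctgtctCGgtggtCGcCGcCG

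The windows of ZNF486 and ZNF626 were identical at 87.5% of aligned columns. That of ZNF486 matched ZNF90 at 86.9% and ZNF737 at 83.6%, although ZNF90 had 65 and 253 counts and ZNF737 had 144 and 249. ZNF626 matched ZNF90 at 83.7% and ZNF737 at 82.3%. The silent ZNF667, ZNF229 and ZNF560 matched each other and these windows at 45.3% to 52.9%. Among these 4 windows of the cluster the silent pair was the most alike and ZNF486 with the counted ZNF90 came next. The cluster's other windows were not aligned.

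CpG content varied widely among the silent genes. ZNF667 had 42 CpG in 300 bases (observed over expected 1.03), ZNF560 had 16 (0.606), ZNF229 had 15 (1.05), ZNF486 had 10 (0.415) and ZNF626 had 8 (0.333). The 8 windows had a median of 13.5 CpG, and 50% of them were above 0.6 observed over expected. Among members called silent in neither line, 191 of 222 had a window, with a median of 20 CpG and 77.5% above 0.6. Some of these windows lie far from the start of the counted gene model, by 53782 bases at ZNF254 and 52226 at ZNF83. They were kept. All 27305 promoters of the table had a median of 14, with 48.9% above 0.6. Within the ZNF101 to ZNF254 cluster the 4 silent windows held 8 to 13 CpG (median 10) and the 20 others 8 to 18 (median 10.5), so the ranges overlapped there. DNA methylation was not analysed here.

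The 6 members past 4-fold towards SK-UT-1 had 4 to 104 counts in SK-LMS-1, so none of them met the rule for silence there. ZNF878 had 4 and 90 counts, which made SK-UT-1 18.3-fold higher (6.91 to 68.7). ZNF114, a lone gene outside the clusters, had 9 and 117 counts, 10.6-fold higher (5.39 to 23.7). For these 2 genes alone the whole interval lay beyond 4-fold.

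ZNF850 had 104 and 610 counts, which made SK-UT-1 4.78-fold higher (3.87 to 5.94). ZNF649, reported as a repressor of serum response element activity, had 55 and 321 counts, 4.75-fold higher (3.56 to 6.45), and has an antisense gene over its exons. ZNF470 had 84 and 439 counts, 4.26-fold higher (3.36 to 5.44). ZNF442 had 17 and 88 counts, 4.21-fold higher (2.49 to 7.56). Next came ZNF880 (3.75-fold), ZNF433 (3.48-fold), ZNF738 (3.44-fold) and the pseudogene ZNF542P (3.44-fold). The 10 genes fell in 5 clusters and 1 lone locus.

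Beyond the silent genes, 8 members passed 2-fold towards SK-LMS-1. ZNF578 had 34 and 3 counts, a ratio of 13.9 (4.38 to 70.8). ZNF233 had 11 and 3 counts, a ratio of 4.50 (1.19 to 25.1). ZNF528, the neighbour of ZNF578, had 236 and 94 counts, 3.08-fold higher in SK-LMS-1 (2.42 to 3.96). The others were ZNF547 (31 and 12 counts), ZNF763 (36 and 16), ZNF524 (28 and 14), ZNF677 (58 and 31) and ZNF611 (418 and 232).

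Listed genes no more than 500 kb apart were joined into 20 position clusters, of which 7 held 1 gene and 11 held 3 or more members. The cluster medians ran from -0.73 to 0.13 on the log2 scale. Of the 11, 10 medians were below 0, that of the 5 genes from ZNF302 to ZNF792 was above it (0.13), and 0 were beyond 2-fold. The largest ratios belonged to single genes or to short runs of silent genes, not to whole clusters. The ZNF302 to ZNF792 median was -0.03 under scaling by library totals and -0.0089 under the upper quartile.

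**Figure D3:**
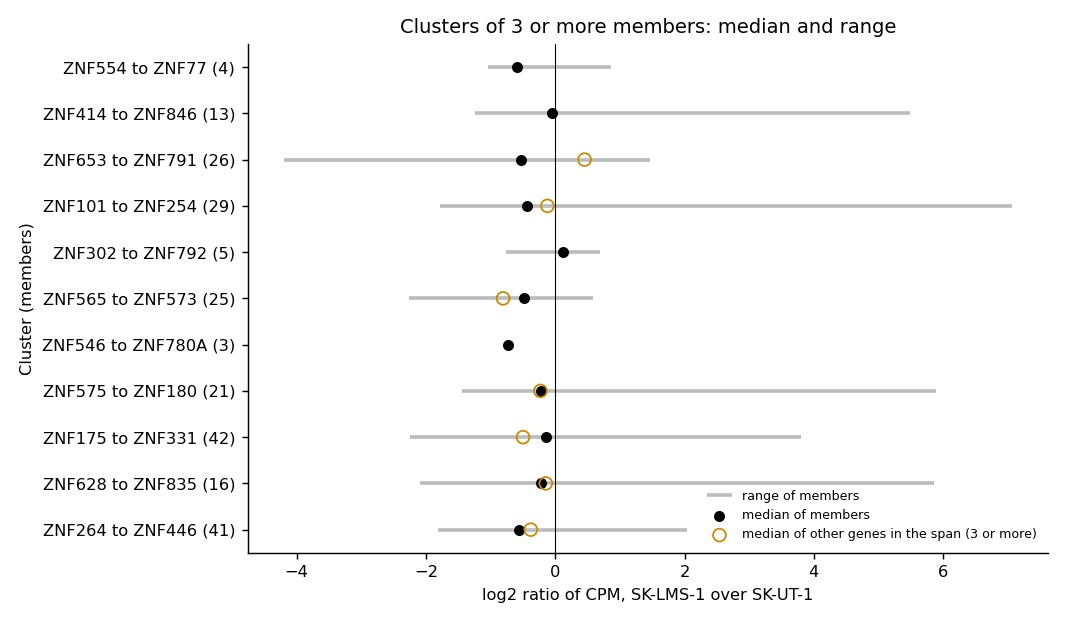
Median (black point) and range (grey line) of the members' log2 ratio, SK-LMS-1 over SK-UT-1, in the 11 clusters of 3 or more members, in order along the chromosome and with counts under 3 raised to 3. Open circles give the median of genes of other kinds inside the span, and the black points stay between -0.73 and 0.13 while single members reach 7.06 and -4.20.

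The ZNF101 to ZNF254 cluster on the short arm (chr19:19668153-24129967) held 29 members, 7 of them silent in SK-UT-1. It is a primate-expanded group of closely related KRAB genes. Its median was -0.43, 8 members passed 2-fold towards SK-UT-1 and 14 were within 2-fold. Genes of other kinds in a span exclude names holding ZNF and names such as ZFP, ZSCAN or ZBTB. The 4 that reached the minimum here had a median of -0.12. Since this cluster's zinc finger genes are near copies, fragments that fit several of them could have been lost or split in counting. Levels here are less certain than elsewhere.

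Silent and raised genes alternated inside this cluster. From ZNF14 to ZNF626, bounds chosen after their values were seen, 4 of 10 members were silent in SK-UT-1 and the other 6 were higher there, with a median of -1.33. ZNF253 (106 and 307 counts), ZNF93 (55 and 160), ZNF682 (34 and 111) and ZNF90 (65 and 253) formed the longest run of members past 2-fold towards SK-UT-1 on the chromosome. On one side of this run stands ZNF506 with 150 and 0 counts, and on the other ZNF486 with 327 and 1. ZNF738 (118 and 499 counts) and ZNF493 (93 and 242) were higher in SK-UT-1 further along. After them ZNF208, ZNF257 and ZNF729 made up a run of 3 silent members in a row, the longest run in favour of SK-LMS-1. Near the centromere ZNF91 (1007 and 1015 counts), ZNF675 (297 and 321) and ZNF681 (279 and 244) were within 1.5-fold, with intervals above 1 for ZNF91 and ZNF681. ZNF726 (40 and 99 counts) and ZNF254 (293 and 585), nearer still, were 2.01-fold (1.38 to 2.99) and 1.63-fold (1.41 to 1.88) higher for SK-UT-1.

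**Figure D4:**
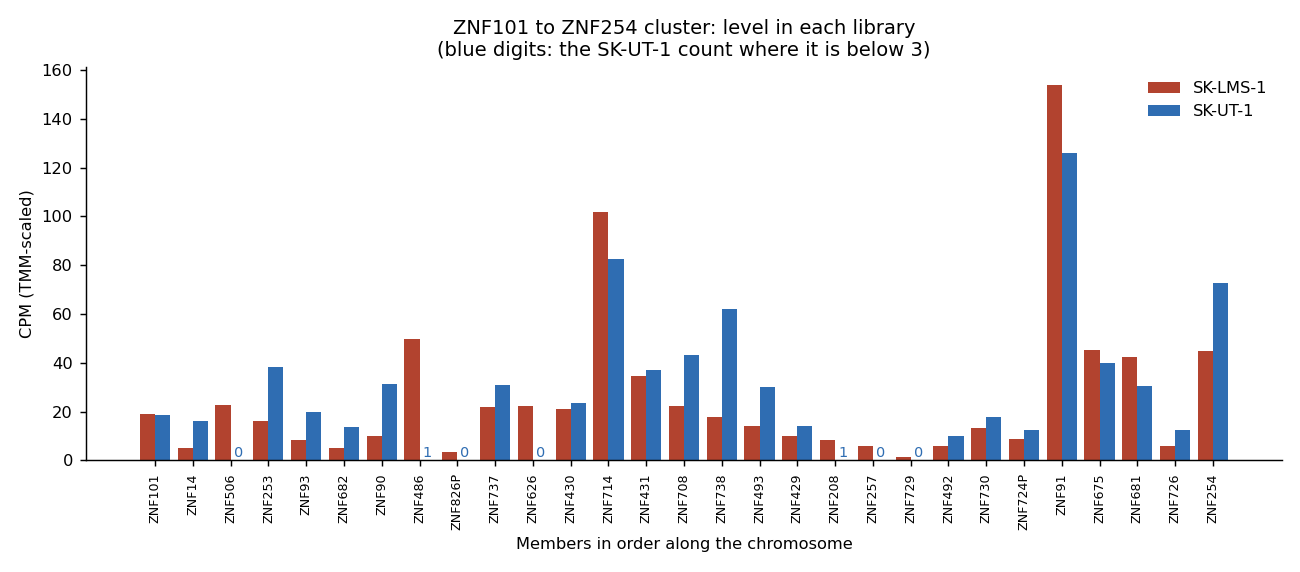
Level in TMM-scaled CPM of the 29 members of the ZNF101 to ZNF254 cluster, in order along the chromosome, in SK-LMS-1 (red) and SK-UT-1 (blue), with the SK-UT-1 count written where it is under 3. The 7 genes without a visible blue bar stand among genes whose blue bar is the taller one, such as ZNF253, ZNF90 and ZNF738.

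The ZNF175 to ZNF331 cluster (chr19:51571278-53580269) held 42 members and changed direction along its length. Its median was -0.14, with 4 members at least 2-fold higher in each line. From ZNF577 to ZNF880, bounds again chosen after seeing the values, 12 of 14 members were below 0 and the median was -0.68. This stretch holds ZNF649, ZNF614 (161 and 556 counts) and ZNF880 (72 and 332). The next 7 members, from ZNF528 to ZNF611, had a median of 0.93 and 6 of them were above 0. Among these were ZNF83 (504 and 326 counts) and ZNF808 (363 and 308). ZNF880 and ZNF528 are adjacent and differed in opposite directions, 3.75-fold towards SK-UT-1 and 3.08-fold towards SK-LMS-1.

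**Figure D5:**
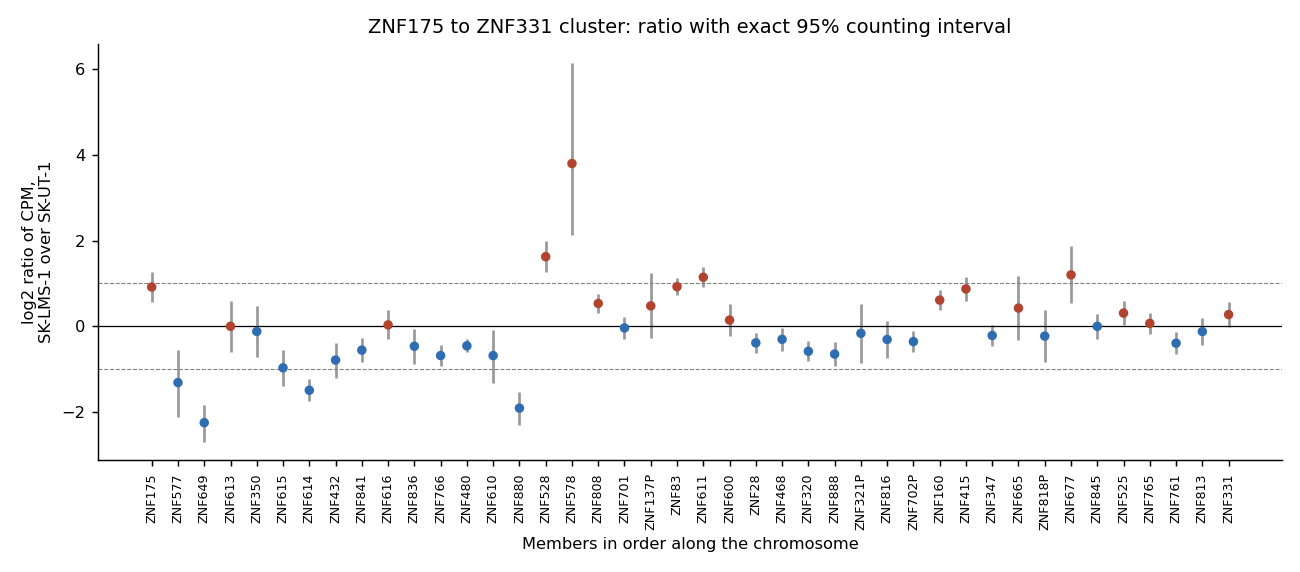
Log2 ratio of CPM, SK-LMS-1 over SK-UT-1, with its exact 95% counting interval (grey bars) for the 42 members of the ZNF175 to ZNF331 cluster in order along the chromosome, red above 0 and blue below, with dashed lines at 2-fold. Points lie mostly below 0 from ZNF577 to ZNF880, lie mostly above 0 from ZNF528 to ZNF611, and fall on both sides of 0 after that, with ZNF677 at 1.20 and ZNF888 at -0.65.

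The remaining large clusters had medians below 0 to differing degrees. ZNF565 to ZNF573 (chr19:36182060-37779590) had 22 of 25 members below 0 and a median of -0.48. The 5 genes of other kinds in its span had a median of -0.81. The largest gap of this cluster was at ZNF850, and the 4 consecutive genes ZNF527, ZNF569, ZNF570 and ZNF793 lay between -0.83 and -1.25. ZNF264 to ZNF446 (chr19:57191500-58489533), near the telomere, had 31 of 41 members below 0 and a median of -0.57. Around the silent ZNF154, the genes ZNF551, ZNF776, ZNF586 and ZNF552 passed 2-fold towards SK-UT-1, with log2 ratios of -1.11, -1.13, -1.37 and -1.11, while ZNF671 among them was at -0.16.

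ZNF653 to ZNF791, the cluster of ZNF878, had 15 of 26 members below 0 and a median of -0.53. The 4 genes of other kinds in its span had one of 0.45. ZNF763 (2.76-fold towards SK-LMS-1), ZNF433 and ZNF878 follow each other there, so direction turned between neighbours. ZNF575 to ZNF180, the cluster of ZNF229, had 14 of 21 members below 0 and a median of -0.22. ZNF221 led its SK-UT-1 side with 35 and 117 counts, 2.72-fold higher there (1.85 to 4.09). ZNF628 to ZNF835, with 10 of 16 members below 0 and a median of -0.22, held ZNF667, ZNF470 and ZNF542P. In ZNF414 to ZNF846, with 7 of 13 members below 0 and a median of -0.05, ZNF560 was silent and ZNF559 (95 and 277 counts) was 2.37-fold higher for SK-UT-1 (1.87 to 3.03). ZNF77 (28 and 71 counts) led the small ZNF554 to ZNF77 cluster of 4 members, 2.06-fold higher in SK-UT-1 (1.32 to 3.32).

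Exon overlap on the same strand makes 4 members uncertain, because 1 fragment was counted for each gene it met. Each shares exons with a read-through gene listed beside it. ZNF177 (30 and 53 counts) shares 97.6% of its exon bases, ZNF20 (80 and 181) 97.3%, ZNF321P (32 and 44) 97.7% and ZNF625 (96 and 117) 21.5%. None of the 4 is among the genes past 4-fold.

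Of the 10 most abundant members, ZNF569 passed 2-fold and the other 9 did not, although ZNF260 passed it under library totals and the upper quartile. ZNF146, a protein made of fingers with no KRAB box, had 146 and 204 CPM. Per kilobase of exon that is 37.8 and 52.9 CPM per kb. ZNF91, a repressor of SVA retrotransposons in humans, had 154 and 126 CPM (28.0 and 23.0 per kb). ZNF507 had 127 and 116 CPM, a ratio of 1.09 whose interval (0.996 to 1.20) held 1, and its log2 ratio of 0.13 turned to -0.02 under scaling by library totals and to -0.0035 under the upper quartile. ZNF460 had 88.8 and 131 CPM, ZNF480 had 89.3 and 122, ZNF714 had 102 and 82.4, and ZNF562 had 78.9 and 86.2. ZNF121, described as a partner of MYC, had 50.8 and 71.1 CPM but ranked high per length (30.3 and 42.4 per kb).

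ZNF569 had 41.7 and 95.8 CPM, 2.30-fold higher in SK-UT-1 (2.0 to 2.65). ZNF260, whose mouse counterpart works with GATA4 in heart muscle, had 58.5 and 115 CPM, 1.97-fold higher (1.75 to 2.23).

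Members with a described role or with known methylation in carcinomas were looked up by name. ZNF93, a repressor of L1 retrotransposons, had 55 and 160 counts, 2.37-fold higher in SK-UT-1 (1.73 to 3.28), unlike ZNF91 with 1007 and 1015. ZNF274, which brings SETDB1 to the ends of other zinc finger genes, had 143 and 285 counts, 1.62-fold higher in SK-UT-1 (1.32 to 2.0). ZNF45 had 203 and 475 counts, 1.90-fold higher (1.61 to 2.26). ZNF382 had 67 and 115 counts, 1.40-fold higher (1.03 to 1.92). ZNF331 (190 and 193 counts), ZNF471 (87 and 86) and ZNF132 (25 and 21) had intervals that held 1. Of the 6 genes looked up for methylation in carcinomas, ZNF667 and ZNF154 were thus at 0 in SK-UT-1, while ZNF331, ZNF471, ZNF132 and ZNF382 were counted in both lines. With 10 or more counts in SK-LMS-1, 9 of the 234 members and 501 of all 13969 genes were at 0 in SK-UT-1. ZNF154 lay just at that minimum with 10 counts, and a link to methylation was not tested.

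The machinery that KRAB proteins work through was present in both lines. All 26 listed co-repressor and heterochromatin genes had 10 counts in both, as did 11458 of all 13969 genes. Their median log2 ratio was -0.34, against -0.01 over all genes. Of the 26, 22 were within 2-fold, as were 8304 of the 11458 genes with 10 counts in both. Past 2-fold were 2 towards SK-LMS-1, against 1766 of those 11458, and 2 towards SK-UT-1, against 1388. TRIM28, the shared co-repressor, had 1337 and 1899 counts, 1.16-fold higher in SK-UT-1 (1.08 to 1.24). SETDB1 had 159 and 344 counts, 1.76-fold higher (1.46 to 2.14), and CBX5, which encodes HP1 alpha, had 3856 and 7531 counts, 1.59-fold higher (1.53 to 1.65).

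DNMT3B, a de novo DNA methyltransferase, had 62 and 279 counts, 3.66-fold higher in SK-UT-1 (2.77 to 4.91). SUV39H1, the relative of the enzyme the series targets, had 88 and 255 counts, 2.36-fold higher in SK-UT-1 (1.84 to 3.04). SUV39H2 itself had 349 and 453 counts, with an interval (0.821 to 1.09) that held 1. CHD3 of the NuRD complex had 557 and 214 counts, 3.20-fold higher in SK-LMS-1 (2.73 to 3.76). FAM208A, the HUSH subunit also called TASOR, had 1535 and 710 counts, 2.66-fold higher in SK-LMS-1 (2.43 to 2.91). Whether these levels bear on the silent zinc finger genes was not tested.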

How the data were processed

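RNA from SK-LMS-1 and SK-UT-1 cells under DMSO was prepared as stranded total RNA (SMARTer kit, per the labels' protocols). The deposited values are raw counts that the authors obtained per gene with featureCounts 2.0.1 over exons on hg38 with a UCSC annotation, grouped by gene name and with strand setting 1, per the file headers. A fragment meeting several genes was counted for each, per the file headers. For the aligner, the sources used here give no name. The table's 2 further columns of counts match neither sample and were not used.

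Counts summed to 6906280 and 7635850. CPM came from edgeR 4.0.16 under R 4.3.3 (TMM factors 0.949 and 1.05) over the whole table. For log2 ratios, medians, size rules and ranks, counts under 3 were raised to 3 (0.458 and 0.373 CPM). Folds with an interval use the counts as they are. Against 0 counts a fold is taken against that floor, written with at least, and is no 95% limit. The exact 95% lower limit is smaller and is given beside it. Ratios have exact 95% conditional binomial intervals (Clopper-Pearson, scipy 1.17.1), which cover counting error only, since amplified fragments without molecular identifiers are not independent molecules. No test was possible with 1 library per line. The ratio computation was tested on simulated counts. Gene models matched RefSeq by symbol for 234 members, 2 of them through a synonym.

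Members, lists and rules were chosen with earlier results of these data known. The text names up to 10 silent genes per line with the highest CPM, the 10 highest mean CPM, the 10 largest ratios per direction at 5 CPM or more, the largest ratio per direction past 2-fold in each cluster, and a list of described genes. Other members are named as neighbours or examples, chosen after their values were seen. Protein features (finger number, KRAB box) were not analysed here. Alternatives were scaling by edgeR's upper quartile, by DESeq2 1.42.0 size factors or by library totals, and other minimums, size rules, floors and cluster gaps. Others left out overlapping genes and the 7 members with a symbol ending in P, or thinned the deeper library. Those 7 differ from the 8 pseudogenes of RefSeq: they include ZNF724P and lack ZNF788 and ZNF781.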

Additional observations from a re-analysis of the deposited data

How the results depend on the processing

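No paired analysis was possible because each line has 1 library, and no library could be left out. The median log2 ratio of members stayed below 0 under the alternatives run, from -0.33 (all listed genes) to -0.51 (library totals). Library totals moved the median of all genes by -0.15 and the upper quartile by -0.13. A scaling shifts all ratios alike, so the members' distance of -0.35 from that median is the same by construction. Under those scalings, 57 members passed 2-fold towards SK-UT-1 against 45. Members 4-fold higher in SK-LMS-1 numbered 13, and 10 with the whole interval beyond 4-fold. They fell to 0 with 10 counts required in both lines, a choice made after seeing the data. Each of the 13 had fewer than 10 counts in SK-UT-1, so that setting removes them by its rule. Members 4-fold higher in SK-UT-1 numbered 6, and 45 with a 2-fold rule but 2 with the whole interval beyond 4-fold. The 1 member silent in SK-LMS-1 became 0 with a minimum of 20 counts or when silence meant 0 counts, and 3 when it meant fewer than 10. Those silent in SK-UT-1 numbered 9 to 13 under the same settings. Clusters beyond 2-fold stayed at 0 with gaps of 250 kb and 1000 kb. Of 135 values of named members under other scalings, 128 moved within their counting interval. Depth limits ratios to a median half-width of 0.40 (log2).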

Other observations

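Zinc finger genes of chromosome 19 with other names were looked at beside the members, with no test of the difference. The 13 that reached 10 counts, among them the ZFP, ZSCAN and ZBTB genes, had a median log2 ratio of 0.05 (-0.10 under scaling by library totals and -0.09 under the upper quartile), 8 had a ratio above 0 and 9 were within 2-fold. PEG3, an imprinted gene expressed from the paternal allele, had 104 counts in SK-LMS-1 against 0, so it was at least 42.6-fold higher there. ZIK1 had 30 and 0 counts, at least 12.3-fold higher (exact lower limit 9.39). Both lie on the distal long arm, PEG3 beyond ZNF667 (141 and 0 counts) and ZIK1 before ZNF154 (10 and 0). ZFP28 lies between ZNF667 and PEG3 and had 152 and 179 counts, with a ratio of 1.04 (0.835 to 1.30). ZNF470, in the same interval, was 4.26-fold higher in SK-UT-1. ZFP82 had 73 and 213 counts, 2.38-fold higher in SK-UT-1 (1.81 to 3.14). ZFP36, an RNA-binding protein of another finger class, had 27 and 14 counts, 2.37-fold higher in SK-LMS-1 (1.20 to 4.89).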
